A study of Mus musculus with 2 samples.

Results

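The 9 genes Cd3d, Cd3e, Cd3g, Cd247, Lck, Zap70, Lat, Cd5 and Cd6 encode the CD3 complex of the T cell receptor (TCR) and its nearest signalling partners. They were taken as a set of listed names from the 28009 genes counted in IL-10-producing CD4+ T cells of the mouse, and all 9 had enough UMIs (unique molecular identifiers, which mark single mRNA molecules) to be compared. The cells came from adult mice that carry both an IL-10 eGFP and a Foxp3 mRFP reporter and were given repeated intraperitoneal anti-CD3 (clone 2C11) and killed hours after the last injection. They were sorted on the IL-10 reporter with Foxp3+ cells included, and were profiled on the 10x Genomics droplet platform as 1 library from spleen and 1 from small intestine. Strain, treatment and reporters were shared by both libraries, so tissue is the only labelled difference between them, and no library of untreated mice was analysed here. Tissue also goes with the library and with how cells were isolated, and these cannot be told apart. For intestinal lymphocytes the paper describes EDTA, collagenase IV and a Percoll gradient. It describes no digestion for spleen. The sources used here do not say how many mice went into each library.

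T cells detect antigen through the TCR chains, which have no signalling domain of their own and rely on the CD3 chains delta, epsilon, gamma (Cd3d, Cd3e, Cd3g) and zeta (Cd247). The kinase Lck phosphorylates the tyrosine motifs of these chains, Zap70 docks on them and phosphorylates the membrane adaptor Lat, and Lat gathers the downstream enzymes. CD5 and CD6 are related scavenger receptor proteins of the T cell surface that tune the strength of this signal. The antibody given to the mice binds CD3 epsilon, the product of Cd3e.

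Cd3g, Cd3d and Cd3e lie side by side on chromosome 9 (GRCm38; Cd3g 44969572 to 44980431 on the minus strand, Cd3d 44981786 to 44987339 on the plus strand, Cd3e 44998740 to 45009627 on the minus strand). The starts of Cd3g and Cd3d face away from each other and are 1355 bases apart. Cd5 and Cd6 are neighbours on chromosome 19, with 50339 bases between the start of Cd5 and the end of Cd6. The other members stand alone, Cd247 and Zap70 far apart on chromosome 1, Lck on chromosome 4 and Lat on chromosome 7. Cd247 overlaps the listed genes Pou2f1 and Gm37469 on the opposite strand. The windows from 250 bases before to 50 bases after the RefSeq starts of the 3 chromosome 9 genes are shown here (RefSeq, GRCm38.p6, 5′ to 3′ on each gene's own strand), because these neighbours differed in how far they went with the Ccl5-high state described further on: in spleen Cd3g and Cd3e were 0.50 and 0.45 higher there on the log2 scale and Cd3d 0.13. In small intestine Cd3g, Cd3e and Cd3d were higher in that state by 0.63, 0.47 and 0.19. Capitals mark the letters GGAAG (the core bound by ETS factors) and CAGNTG (an E-box), each searched on both strands.
Cd3g, chr9:44980382-44980681: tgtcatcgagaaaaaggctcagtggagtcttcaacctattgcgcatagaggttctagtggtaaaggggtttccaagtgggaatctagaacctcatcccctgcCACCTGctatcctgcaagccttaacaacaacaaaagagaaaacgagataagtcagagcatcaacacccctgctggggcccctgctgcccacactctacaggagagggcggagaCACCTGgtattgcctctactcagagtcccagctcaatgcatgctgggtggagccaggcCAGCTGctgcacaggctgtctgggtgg
Cd3d, chr9:44981536-44981835: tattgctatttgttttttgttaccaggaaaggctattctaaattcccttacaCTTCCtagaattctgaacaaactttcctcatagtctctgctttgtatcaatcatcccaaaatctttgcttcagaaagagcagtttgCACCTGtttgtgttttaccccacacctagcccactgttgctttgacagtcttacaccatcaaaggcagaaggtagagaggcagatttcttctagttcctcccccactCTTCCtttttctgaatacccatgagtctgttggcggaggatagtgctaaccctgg
Cd3e, chr9:45009562-45009861: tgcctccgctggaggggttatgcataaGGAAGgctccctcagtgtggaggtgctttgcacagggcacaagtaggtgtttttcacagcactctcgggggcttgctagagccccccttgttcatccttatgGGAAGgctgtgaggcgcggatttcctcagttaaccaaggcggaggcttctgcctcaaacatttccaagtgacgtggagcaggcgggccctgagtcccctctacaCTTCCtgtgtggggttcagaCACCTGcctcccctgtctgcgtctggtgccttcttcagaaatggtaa

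GGAAG occurred 2 times in the Cd3d window, 3 times in that of Cd3e and 0 times in that of Cd3g, and CAGNTG occurred 1, 1 and 3 times. TGTGGT, the core bound by RUNX factors, was in none of the 3 windows. Among 32851 windows of this length, 71.4% held GGAAG, 51.4% CAGNTG and 16.8% TGTGGT. These letter matches are a description of the sequence and not of binding.

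After removal of low-quality barcodes and of cells in G2/M, 1278 of 1474 barcodes of the small intestine and 1469 of 1738 of the spleen remained, with medians of 3696 and 5408 UMIs per cell, and the libraries shared 0 barcodes. Levels are UMIs of a gene per 1000000 UMIs of all genes (CPM), summed over the cells of a group, with a 95% Poisson interval in parentheses, and differences are log2 ratios of CPM with a 95% binomial interval. Both intervals cover counting error only. With 1 library per tissue there is no replicate, so no difference was tested, and a member is called here when its ratio reached 1.5-fold. Only 4 of 1278 intestinal and 1 of 1469 splenic cells had no UMI of any of the 4 CD3 genes, and Cd4 was found in 73.1% and 67.0%. The CD3 genes are members themselves, so they give the T cell label no independent check. The alpha beta and gamma delta TCR chain genes looked for were not among the counted names. With so few cells lacking a UMI of the 4 CD3 genes, no cell class without the members was present to give their free-RNA background. Summed over each list, NK markers gave 5 UMIs in small intestine and 31 in spleen (Ncr1 and Klra8 at 0 in both, the rest from Klrb1c and Eomes), B cell markers 71 and 59, myeloid markers 348 and 183, of which Cd68 gave 318 and 82, and epithelial markers 89 and 295, of which Epcam gave 39 and 290. At least 3 UMIs of a list were found in 0 intestinal and 1 splenic cells for NK, 4 and 2 for B cell, 11 and 8 for myeloid and 1 and 31 for epithelial markers. A Cd8a UMI was seen in 169 intestinal cells and in 0 of 1469 splenic cells, which allows a share of cells with such a UMI of up to 0.204% and sets no limit on cells that express the gene, and 105 splenic cells had a Cd8b1 UMI.

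Between the tissues, over all cells, Cd3d, Lck, Zap70 and Lat were at close levels and Cd3e, Cd3g and Cd6 were lower in spleen. Cd247 and, by less, Cd5 were higher there. Cd3d, the delta chain, was counted at 1559 CPM (1525 to 1594) in small intestine and 1505 CPM (1480.5 to 1531) in spleen, a log2 ratio of spleen over small intestine of -0.05 (-0.09 to -0.01). Cd3e, the epsilon chain, was at 851 CPM (826 to 877) and 554 CPM (539 to 569), a log2 ratio of -0.62 (-0.68 to -0.56). Cd3g, the gamma chain, was at 1741 CPM (1705 to 1778) and 1395 CPM (1371 to 1419), a log2 ratio of -0.32 (-0.36 to -0.28). The spleen was thus lower in the epsilon and gamma chains and close to the intestine in the delta chain. Cd247, the zeta chain, went the other way, with 270.0 CPM (256 to 285) in small intestine and 393 CPM (380.2 to 406) in spleen, a log2 ratio of 0.54 (0.45 to 0.63).

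The make-up of the CD3 transcripts differed between the libraries. Of the UMIs of the 4 CD3 genes, Cd3e gave 19.3% (18.7 to 19.8%) in small intestine and 14.4% (14.0 to 14.8%) in spleen (Clopper-Pearson intervals). Cd247 gave 6.11% (5.80 to 6.43%) and 10.2% (9.90 to 10.5%). Cd3d took 35.3% (34.6 to 35.9%) and 39.1% (38.6 to 39.6%), and Cd3g 39.4% (38.7 to 40.02%) and 36.3% (35.8 to 36.8%). Over all cells the intervals of the tissues did not overlap for any of the 4 chains. Within the Ccl5-high state described further on, those of Cd3d and Cd3g did overlap. Cd3d gave 34.9% (34.3 to 35.6%) in small intestine and 35.2% (34.0 to 36.4%) in spleen, and Cd3g 39.8% (39.1 to 40.5%) and 40.5% (39.2 to 41.8%). In cells outside that state these chains overlapped too, Cd3d at 40.1% and 39.9% and Cd3g at 33.8% and 35.4%. Cd3e and Cd247 stayed apart in both. The 4 shares are parts of the same total, so they do not vary independently. Shares also moved with depth within a tissue. From the lowest to the highest class of cells by UMIs, intestinal Cd3d went from 38.2% to 33.6% and Cd3g from 36.9% to 41.1%. Intestinal Cd3e (18.9% and 19.4%) and Cd247 (5.94% and 5.93%) hardly moved. In spleen Cd247 went from 7.99% to 11.0%, Cd3e from 13.6% to 15.2%, Cd3d from 40.5% to 38.5% and Cd3g from 38.0% to 35.4%.

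Of the kinases and the adaptor, Lck was at 678 CPM (655 to 701) in small intestine and 684 CPM (667 to 701) in spleen. Zap70 was at 539 CPM (519 to 559) and 533 CPM (519 to 549), and Lat at 565 CPM (544 to 586) and 602 CPM (586 to 618). Their log2 ratios were 0.01 (-0.05 to 0.07) for Lck, -0.01 (-0.08 to 0.05) for Zap70 and 0.09 (0.03 to 0.16) for Lat. These 3 genes and Cd3d differed little enough that the sign of the ratio turned under another scaling or another choice of cells.

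Cd6 showed the widest gap of the set. It was at 464 CPM (446 to 483) in small intestine and 233 CPM (223 to 243) in spleen, 1.995-fold lower in spleen and a log2 ratio of -0.997 (-1.08 to -0.91). Its neighbour Cd5 was at 139 CPM (129 to 150.2) and 164 CPM (155 to 172), a log2 ratio of 0.23 (0.10 to 0.36) in the opposite direction. That gap was not seen when cells with a Foxp3 or Cd8a UMI were left out, a choice made after the data were seen. Cd5 was then at 149.9 CPM in small intestine and 150.6 CPM in spleen, a log2 ratio of 0.01 (-0.14 to 0.15). By the 1.5-fold rule over all cells, 2 of 9 members (Cd3e and Cd6) were lower in spleen and 0 of 9 higher, where 21.3% of all 9034 genes compared were lower and 24.2% higher. The members' share was therefore near the background for lower calls. The median log2 ratio was -0.01 over the members and 0.02 over all genes. Over genes with at least 500 UMIs it was 0.14, and relative to that shift Cd3e and Cd6 were lower still.

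**Figure D1:**
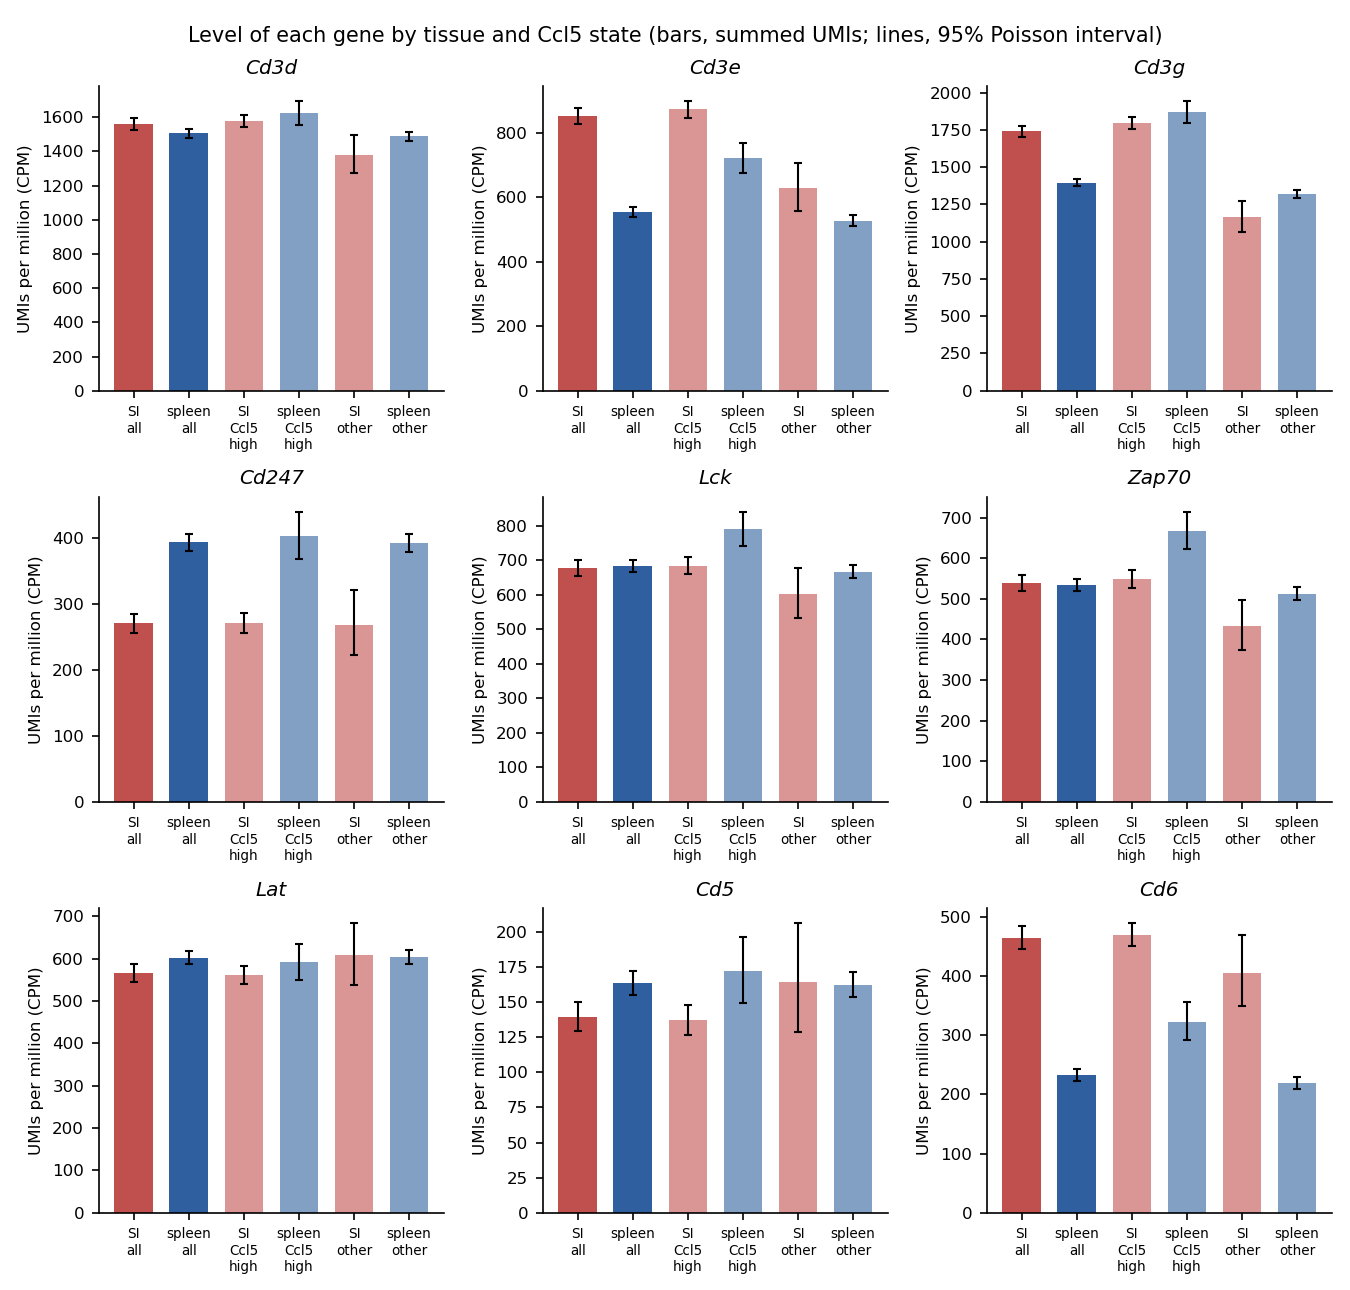
Level of each of the 9 genes in CPM (bars from summed UMIs, lines 95% Poisson intervals) in small intestine (SI, red) and spleen (blue), for all cells, Ccl5-high cells and the other cells. Cd6 stands at 464 in small intestine and 233 in spleen, Cd247 at 270.0 and 393, and the higher Cd3g level of the small intestine is absent when Ccl5-high cells are set against Ccl5-high cells.

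The share of cells with a UMI followed the levels once depth was equalised. The spleen library was deeper, so each cell was thinned to 2000 UMIs, which left out 108 intestinal and 23 splenic cells. Cd3e was then found in 83.2% (80.9 to 85.3%) of intestinal and 66.9% (64.4 to 69.3%) of splenic cells, and Cd6 in 55.9% (53.0 to 58.8%) and 35.1% (32.6 to 37.6%) (Clopper-Pearson intervals). Cd247 was found in 39.1% (36.3 to 42.0%) and 52.1% (49.5 to 54.7%). Unthinned, the shares were 92.6% and 90.1% for Cd3e, 71.7% and 63.6% for Cd6, and 59.1% and 80.7% for Cd247. Cd3d was found in 95.1% and 94.4% of thinned cells and Cd3g in 95.04% and 91.9%. A thinned cell held a median of 6 of the 9 members in each tissue, and the means were 5.92 in small intestine and 5.69 in spleen.

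**Figure D2:**
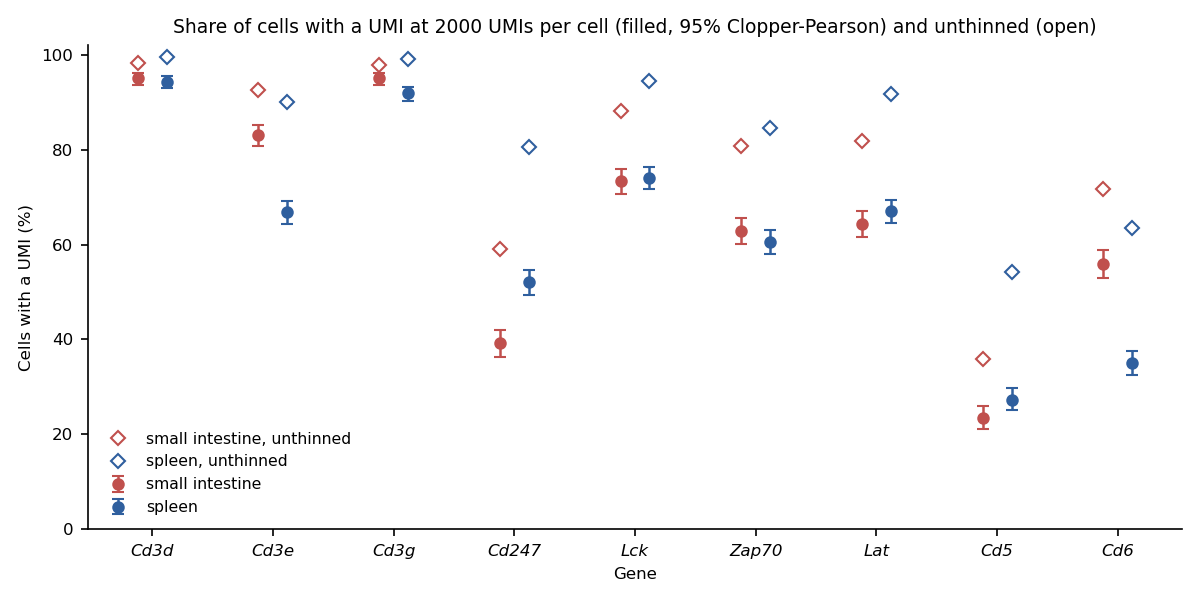
Share of cells with at least 1 UMI of each gene, with cells thinned to 2000 UMIs (filled circles, 95% Clopper-Pearson intervals) and unthinned (open diamonds), in small intestine (red) and spleen (blue). After thinning, Cd3e and Cd6 stay higher in small intestine and Cd247 higher in spleen, at 39.1% and 52.1%.

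The tissues differ in their share of cells with a high level of Ccl5, a chemokine of effector T cells, and several members went with that state. Cells with at least 10 Ccl5 UMIs per 10000 (Ccl5-high) made up 1178 of 1278 cells (92.2%) in small intestine and 225 of 1469 (15.3%) in spleen. The cut did not fall in a gap: 125 intestinal and 80 splenic cells lay between 5 and 20 per 10000, and all but 6 intestinal cells had some Ccl5 UMI. At cuts of 5, 20 and 40 per 10000, 1246, 1121 and 1099 intestinal cells and 271, 191 and 156 splenic cells were Ccl5-high. The intestinal Ccl5-high class also took in part of a graph cluster low in Ccl5, cluster 5, described further on. By contrast, 815 of the 1469 splenic cells had no Ccl5 UMI. Free Ccl5 RNA was not measured, so the same cut may not pick out the same kind of cells in both tissues. In spleen, Cd3g was at 1869 CPM (1794 to 1946) in the 225 Ccl5-high cells and 1320.3 CPM (1295 to 1346) in the other 1244, a log2 ratio of 0.50 (0.44 to 0.57). Cd3e was at 721 and 528 CPM (0.45 on the log2 scale), Cd6 at 322 and 219 CPM (0.56), and Zap70 at 669 and 512 CPM (0.38). Lck and Cd3d were also above the other cells, by 0.24 (0.14 to 0.34) and 0.13 (0.06 to 0.20). Cd247, Lat and Cd5 had intervals that held 0.

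None of the 9 reached 1.5-fold in spleen, where 8.08% of 8119 genes were called higher in Ccl5-high cells and 10.2% lower. For 6 of the 9 the interval lay above 0 and for 0 below it. Such intervals were not counted over all genes, and genes with many UMIs, like the members, have narrow ones. The members' median log2 ratio was 0.24 against -0.02 over all genes. With a cut of 40 per 10000, chosen after the data were seen, Cd3g and Cd6 reached 1.5-fold. At that cut 9.47% of all genes were called higher and 15.2% lower.

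In small intestine the other cells numbered only 100. Cd3g was at 1797 CPM (1758 to 1836) in Ccl5-high cells and 1165 CPM (1066 to 1269) in the others, a log2 ratio of 0.63 (0.50 to 0.76). Cd3e was at 873 and 628 CPM, a log2 ratio of 0.47 (0.30 to 0.65), and Zap70 at 549 and 433 CPM, a log2 ratio of 0.34 (0.13 to 0.56). Cd3d and Lck were also above the other cells, by 0.19 (0.07 to 0.31) and 0.19 (0.01 to 0.37). Cd6, which set the tissues apart, differed by 0.21 (-0.01 to 0.44) here, with an interval that held 0. Only Cd3g was called higher (1 of 9), where 12.9% of 6870 genes were called higher and 18.7% lower. The median of all genes was -0.14 in this comparison, and relative to it Cd3g was at 0.76 and Cd3e at 0.61, both past 1.5-fold. Cd3g lost its call with cells thinned to 2000 UMIs, with the mean of each cell's own CPM and with a cut at 20 or 40 per 10000, and its log2 ratio over all settings ran from 0.47 to 0.78.

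Comparing the tissues within classes of cells changed the result for part of the set. The Ccl5-high classes were not fully alike, since the intestinal one held all 169 cells with a Cd8a UMI and the splenic one 0. Among Ccl5-high cells, Cd3g was at 1797 CPM (1758 to 1836) in small intestine and 1869 CPM (1794 to 1946) in spleen, a log2 ratio of 0.06 (-0.01 to 0.12). Among the cells that were neither Ccl5-high nor had a Foxp3 or Cd8a UMI (88 intestinal, 984 splenic) it was at 1175 and 1352 CPM, a log2 ratio of 0.20 (0.06 to 0.34). The lower Cd3g level of the whole spleen library was thus not seen within either class, although the sign among Ccl5-high cells turned under other settings (-0.07 to 0.16). Zap70, which was level over all cells, was higher in spleen within both, by 0.28 (0.17 to 0.40) and 0.25 (0.02 to 0.48). Among Ccl5-high cells it was at 549 CPM in small intestine, 586 CPM there without the Cd8a cells, and 669 CPM in spleen. The gap in Cd3e shrank to -0.28 (-0.38 to -0.17) and -0.27 (-0.46 to -0.08).

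Cd6 and Cd247 kept their direction within both classes. Cd6 was at 469.9 CPM (450.3 to 490.2) in intestinal and 322 CPM (291 to 355) in splenic Ccl5-high cells, a log2 ratio of -0.54 (-0.70 to -0.39), and at 398 and 212 CPM in the remaining cells, a log2 ratio of -0.91 (-1.15 to -0.65). Cd247 differed by 0.58 (0.42 to 0.73) and 0.49 (0.21 to 0.79), higher in spleen. Cd5 differed by 0.33 (0.10 to 0.55) among Ccl5-high cells and by -0.15 (-0.52 to 0.25) in the remaining cells, so its direction was not kept. Among Ccl5-high cells 0 of 9 members were called, where 18.4% of 7188 genes were called higher in spleen and 19.5% lower. This count includes the intestinal Cd8a cells. Without them intestinal Cd6 was at 502 CPM, which is more than 1.5-fold above the 322 CPM of spleen. The count of 0 therefore holds only with these cells included, and the other genes were not compared for that choice of cells. With them included, Cd6 and Cd247 lay just inside the limit, and Cd6 passed it when values were scaled without the 50 most counted genes. In the remaining cells Cd6 alone was called lower (1 of 9), where 22.3% of 7269 genes were called lower and 20.4% higher.

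**Figure D3:**
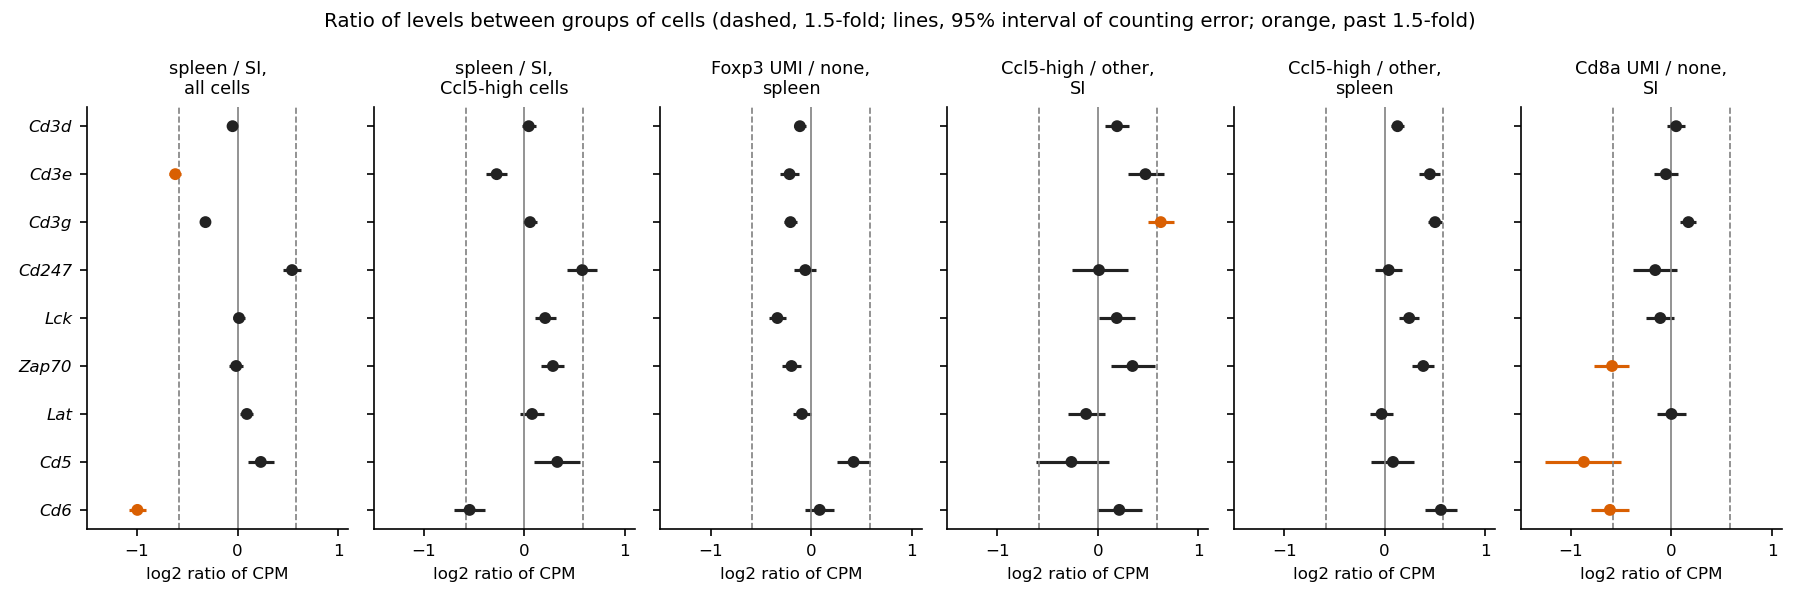
Log2 ratio of CPM for the 9 genes (rows) in 6 comparisons of groups of cells (columns; SI, small intestine), with 95% binomial intervals of counting error; dashed lines mark 1.5-fold and orange points lie past it. Cd6 lies at -0.997 between the tissues and Cd5 at -0.87 in cells with a Cd8a UMI, and no gene lies past the line for Foxp3 or for Ccl5-high cells of the spleen.

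Foxp3, the transcription factor of regulatory T cells, had a UMI in 280 splenic and 28 intestinal cells. In spleen these cells had more Cd5 and less Lck, Cd3e, Cd3g and Zap70, all by less than 1.5-fold. Cd5 was at 202 CPM (184 to 221) with a Foxp3 UMI and 151 CPM (142 to 160.1) without, a log2 ratio of 0.42 (0.26 to 0.58), and in thinned cells its share was 35.5% (29.9 to 41.4%) against 25.4% (22.9 to 28.0%). Lck was at 572 CPM (542 to 604) and 722 CPM (702 to 743), a log2 ratio of -0.34 (-0.42 to -0.25). Cd3e, Cd3g and Zap70 differed by -0.21, -0.20 and -0.20 on the log2 scale, with intervals below 0. None of the 9 was called, where 6.38% of 8119 genes were called higher and 7.35% lower.

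Cells with a Foxp3 UMI were deeper, with a median of 7686 UMIs against 5051, and 93 of the 280 belonged to the graph cluster led by the proliferation genes Hmgb2 and Stmn1. Outside that cluster, a choice made after the data were seen, Lck differed by -0.21 (-0.32 to -0.10) and Cd5 by 0.51 (0.30 to 0.71), while Cd3d stood at 0.06 (-0.01 to 0.13), Cd3g at -0.08 (-0.15 to 0.00), Cd247 at 0.08 (-0.06 to 0.22) and Cd6 at 0.20 (0.02 to 0.38). There 4 of the 9 intervals lay below 0 and 2 above it, against 6 and 1 over all splenic cells. The share of all genes with such intervals was not counted. In small intestine, with only 28 such cells, Cd3e was at 596 against 859 CPM (-0.53 (-0.85 to -0.22) on the log2 scale) and Cd5 at 161 against 139 CPM (0.21 (-0.44 to 0.80)). The Foxp3 reporter transcript mRFP was seen in 55 of the 280 splenic cells with a Foxp3 UMI and in 39 of the 1189 without.

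Cd8a UMIs were found in 169 intestinal cells of this CD4+ sort, all of them Ccl5-high. These cells had less Zap70, Cd5 and Cd6 than the other cells and slightly more Cd3g. Zap70 was at 378 CPM (337 to 423) with a Cd8a UMI and 569.7 CPM (547 to 593) without, a log2 ratio of -0.59 (-0.77 to -0.42). Cd5 was at 82.3 CPM (63.8 to 104.6) and 150.5 CPM (139 to 163), a log2 ratio of -0.87 (-1.26 to -0.51), and Cd6 at 322 CPM (284 to 363) and 492 CPM (471 to 513), a log2 ratio of -0.61 (-0.80 to -0.42). Cd3d, Cd3e, Cd247, Lck and Lat had intervals that held 0, and Cd3g was higher by 0.17 (0.09 to 0.25).

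The 3 of 9 members called lower stood beside 16.7% of 6870 genes called lower and 5.95% called higher. The median of all genes was -0.12 here, and relative to it Zap70 was at -0.47, Cd6 at -0.49 and Cd5 at -0.75, so that only Cd5 stayed past 1.5-fold. Centring on that median changed the split of all calls from 5.95% higher and 16.7% lower to 8.88% and 12.2%. Thinned to 2000 UMIs, Zap70 was found in 51.5% (43.6 to 59.4%) of cells with a Cd8a UMI and 64.7% (61.7 to 67.7%) of those without, Cd5 in 16.6% (11.2 to 23.2%) and 24.6% (21.99 to 27.4%), and Cd6 in 40.5% (32.9 to 48.4%) and 58.4% (55.3 to 61.5%). Restricted to Ccl5-high cells, the log2 ratios were -0.63, -0.85 and -0.64.

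Cd5 and Cd6 divided the Cd8a cells further when Cd8b1, the beta chain of CD8, was taken into account, a split made after the data were seen. Among Ccl5-high cells, Cd5 was at 64.9 CPM (46.8 to 87.7) in the 121 cells with both CD8 chains, 149.9 CPM (97.0 to 221) in the 48 with Cd8a alone and 150.1 CPM (138 to 163) in the 976 with neither, leaving out those with Cd8b1 alone. Cd6 was at 259.6 CPM (222 to 302), 564 CPM (456 to 689.9) and 505 CPM (482 to 529). Against cells with neither chain, the cells with both differed by -1.21 (-1.70 to -0.76) for Cd5 and -0.96 (-1.20 to -0.73) for Cd6 on the log2 scale. The Cd8a-alone cells, with only 25 Cd5 UMIs, differed by 0.00 (-0.64 to 0.58) and 0.16 (-0.16 to 0.46), and the interval of Cd5 is wide enough to hold a 1.5-fold lower level. Zap70 was at 371 CPM (325 to 421), 408 CPM (317 to 517) and 589 CPM (564 to 614), lower in both CD8 groups. Cells with both chains were the deepest, with a median of 4452 UMIs against 3198 and 3618, and intestinal Cd5 was at 179.9, 148 and 117 CPM in the lowest, middle and highest class of cell depth. Cd4 was at 124 CPM with both CD8 chains, 299.9 CPM with Cd8a alone and 459.5 CPM with neither.

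**Figure D4:**
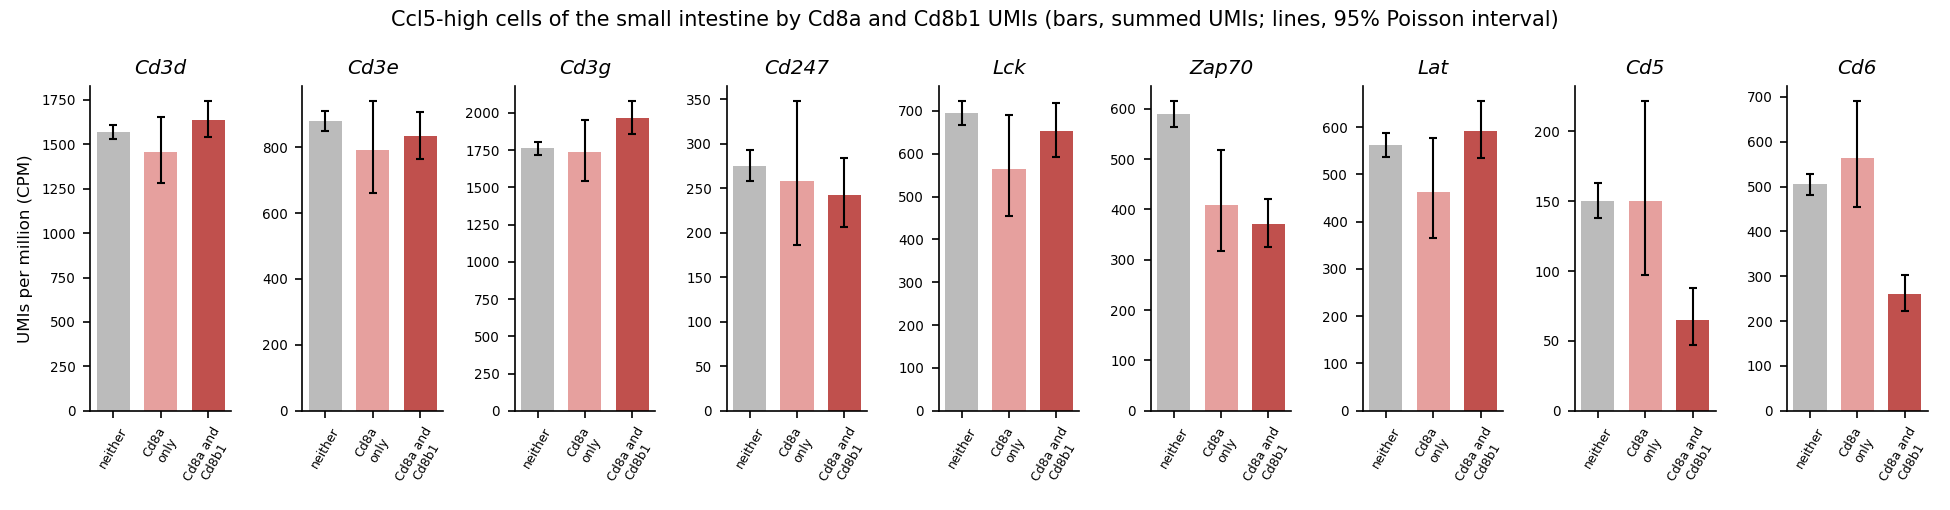
Level of the 9 genes in CPM (bars, lines 95% Poisson intervals) in Ccl5-high cells of the small intestine with neither CD8 chain (grey), with Cd8a UMIs alone (light red) and with Cd8a and Cd8b1 UMIs (red). Cd5 and Cd6 are lowest in the cells with both chains, at 64.9 and 259.6, the Cd8a-alone bars have wide intervals, Zap70 is lower in both CD8 groups, and the bars of Cd3d, Cd3e and Cd247 have overlapping intervals.

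Nr4a1, an immediate early gene of TCR signalling, had a UMI in 417 intestinal and 279 splenic cells, and the members hardly differed between these and the other cells. In spleen Cd5 was at 188 CPM (169.5 to 207) with and 157 CPM (148 to 166) without a Nr4a1 UMI, a log2 ratio of 0.26 (0.09 to 0.43), and Zap70 differed by 0.13 (0.03 to 0.22). In small intestine Lat was at 604 and 544 CPM, a log2 ratio of 0.15 (0.04 to 0.26). Going the other way were Cd3g in spleen, by -0.10 (-0.16 to -0.04), and Cd3d in small intestine, by -0.09 (-0.16 to -0.02). The remaining intervals held 0. No member was called in either tissue. Over all genes, 2.04% were called higher and 2.93% lower in small intestine, and 3.49% and 4.78% in spleen.

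Within the tissues, cells were grouped on a graph of variable genes from which the members and the other listed TCR genes had been left out. This gave 7 clusters in spleen and 5 in small intestine, named by number and leading genes. Zap70 varied most in spleen. It was at 201 CPM (173 to 231) in cluster 4 (led by Pdcd4, Malat1 and Klf2), 472 in cluster 3, 499 in cluster 7, 525 in cluster 2, 576 in cluster 1, 732 in cluster 6 (Ccl5, Ccl4, Nkg7) and 774 CPM (724 to 827) in cluster 5 (S100a6, Lgals1, Nkg7), a 3.86-fold span. Cluster 4 stood below all others, and 4 of the 6 neighbours in this order had overlapping intervals. In thinned cells Zap70 was found in 30.7% (24.6 to 37.3%) of cluster 4 and 75.3% (68.3 to 81.4%) of cluster 5. Cluster 4 also held the lowest Cd247 level, 242 CPM against 504.4 in cluster 5, while its Cd3d and Lat, at 1484 and 618 CPM, lay inside the range of the other clusters.

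Cd3g and Cd3e ranked the splenic clusters alike, except that clusters 3 and 4 changed places. Cd3g ran from 926 CPM in cluster 7 (Ncl, Eif5a, Mif) to 2038 in cluster 6, and Cd3e from 396 to 782 in the same clusters. Cd6 also ran from cluster 7 to cluster 6, from 132 to 309 CPM, and its highest splenic level was next to the lowest intestinal one, 306 CPM in cluster 4. Lck and Cd3d were lowest in cluster 3 (Hmgb2, Stmn1, H2afz), at 525 and 1197 CPM, and highest in cluster 1 (Tnfsf8, Malat1, Maf), at 894 and 1767 CPM. Cd5 was highest in cluster 2 (Tnfrsf9, Tnfrsf4, Ctla4), at 207 CPM, which held 138 of the cells with a Foxp3 UMI. Lat was the flattest member in spleen, with a 1.22-fold span, and all 6 neighbours in its order had overlapping intervals. Neighbours also overlapped throughout for Cd5 and Cd247, whose spans were wider, 1.82-fold and 2.08-fold.

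In small intestine the spans ran from 1.16-fold for Cd3d to 1.83-fold for Cd5, and that of Lat was 1.49-fold. Cluster 4 (Gzma, Cd7, Ccl5), in which 106 of 178 cells had a Cd8a UMI, was lowest for Zap70, Cd5 and Cd6, at 414, 104 and 306 CPM. Cluster 5 (Capg, Emb, Tmsb10), where Ccl5 was at 1124 CPM against at least 55730.3 CPM in the other clusters, was lowest for Cd3d, Cd3e, Cd3g and Lck. Cluster 1 (Gzma, Tnfrsf4, Ccl5) had the lowest Lat, 458 CPM, and the highest Cd3e, 928 CPM.

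**Figure D5:**
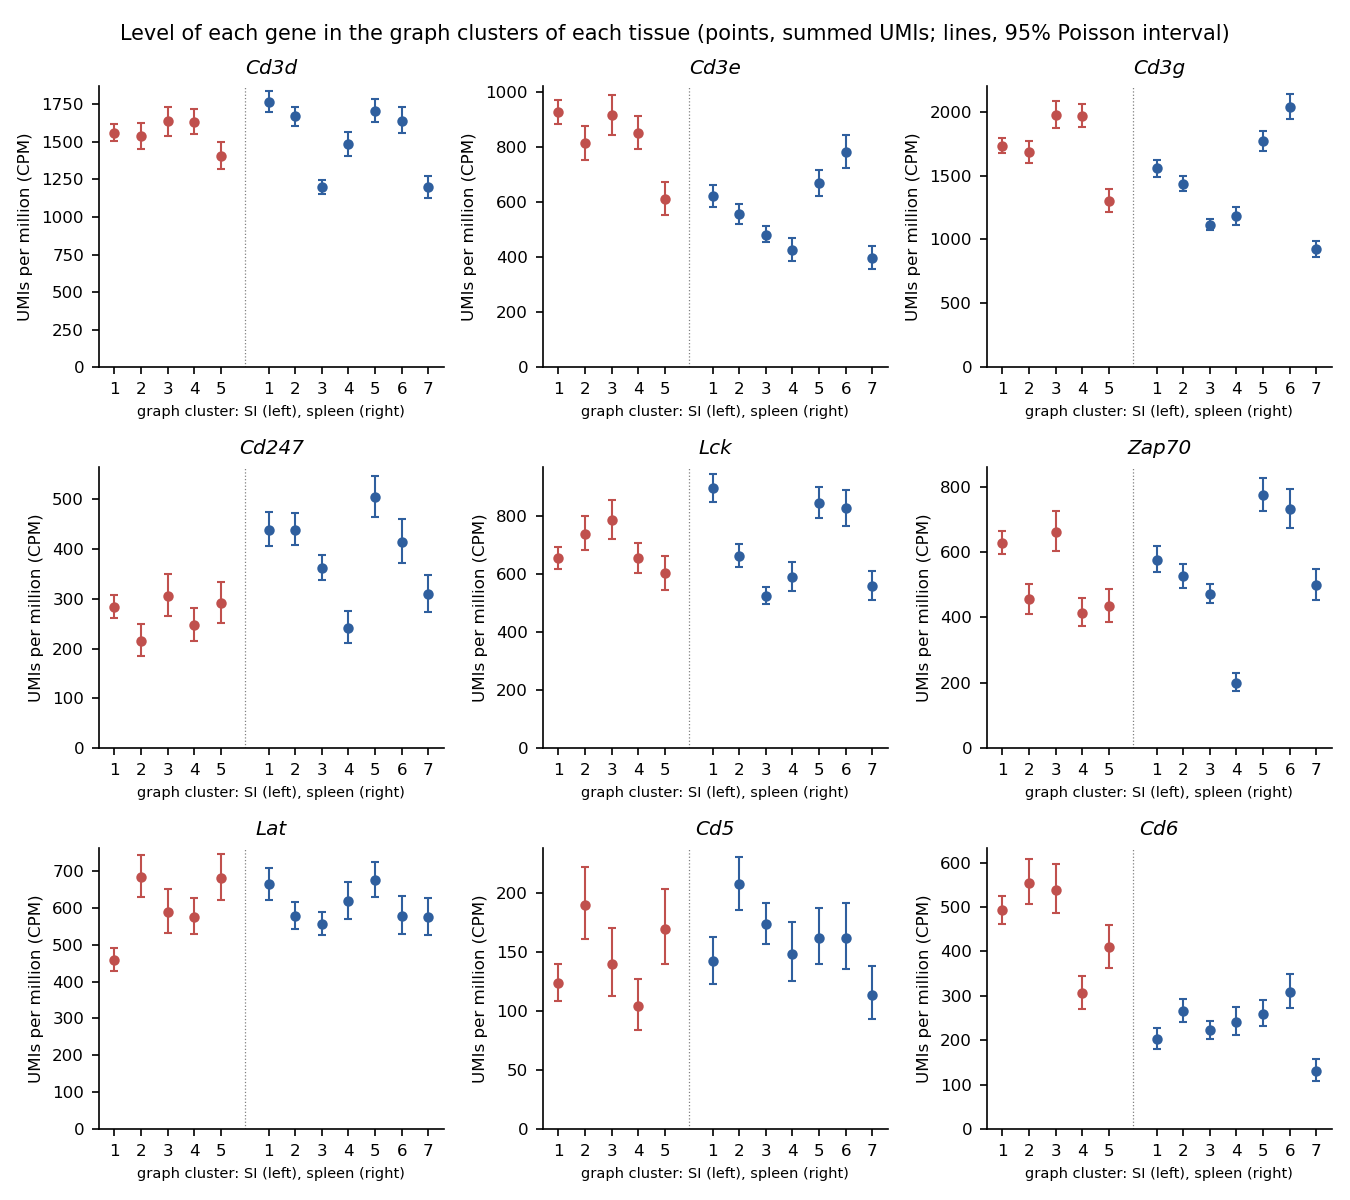
Level of the 9 genes in CPM (points, lines 95% Poisson intervals) in the 5 graph clusters of the small intestine (red) and the 7 of the spleen (blue). Zap70 drops to 201 in splenic cluster 4, Cd3g and Cd3e peak in splenic cluster 6, and Cd6 is higher in each intestinal cluster than in splenic clusters 1 to 5 and 7.

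Over the 12 clusters, centred within tissue, Cd3e and Cd3g followed each other closely (Pearson r = 0.96), and both followed Lck (0.81 and 0.83). Cd3d followed Lck (0.85), Cd3g (0.85) and Cd3e (0.755) as well. Zap70 went with Cd247 (0.84) and with Cd3e (0.70), Cd247 stood at 0.62 with Cd3e, and Cd5 went with Cd6 (0.70). Lat followed the CD3 chains and Zap70 little, at 0.21 with Cd3d, -0.14 with Cd3e, 0.02 with Cd3g, 0.03 with Cd247 and -0.14 with Zap70. It stood at 0.40 with Cd5 and 0.35 with Lck. Cd5 likewise followed little of Cd3e (0.06), Cd3g (0.06), Zap70 (0.05) and Lck (0.11). The 12 points share 2 libraries and their depth and are no independent samples. Of 3186 genes compared, the pair most like each member was Pld3 (0.91) and Cd37 (0.89) for Cd3d, Gnptg (0.96) and Cd3g (0.96) for Cd3e, and Cd3e (0.96) and Nmb (0.95) for Cd3g. For Cd247 it was Ctsb (0.97) and Ly6a (0.96), for Lck Tox4 (0.94) and Casp4 (0.91), and for Zap70 Arf6 (0.95) and Eea1 (0.94). For Lat it was Psmd4 (0.87) and Cxcr3 (0.87), for Cd5 Fnbp1 (0.88) and N4bp1 (0.85), and for Cd6 Ppm1b (0.92) and Zbtb38 (0.90).

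The wider TCR pathway was followed in a list of 47 counted genes for coreceptors, kinases, adaptors, effectors and brakes. The TCR chain genes themselves were not analysed here. Of 46 genes compared, 10 were called higher and 18 lower in spleen, where 24.2% and 21.3% of all genes were, with a median log2 ratio of -0.32 against 0.02 over all genes. Tespa1, an adaptor of early TCR signalling, was at 32.2 CPM in spleen and 5.96 in small intestine, Cd2, an adhesion receptor and costimulator, at 1336 and 444, and the kinase Prkcq (PKC theta) at 192 and 71.3. On the lower side, beside Cd8a and Cd8b1, the adaptor Pag1, which recruits the inhibitory kinase Csk, was at 9.93 and 53.4 CPM. Among Ccl5-high cells 11 of 44 were higher and 13 lower in spleen, beside 18.4% and 19.5% of all genes. In the remaining cells 12 and 15 of 44 were, beside 20.4% and 22.3%. Several of these calls came from few UMIs in the 88 intestinal cells and had intervals that held 0. Examples are Cd8b1 (1 intestinal UMI) and Themis (6) on the higher side and Pag1 (8) on the lower. Cells with a Cd8a UMI, seen only in the intestine, were left out of this class.

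With a Foxp3 UMI, 0 of 44 pathway genes were called higher and 4 lower in spleen, close to the 7.35% of all genes called lower (6.38% higher). The furthest were Themis, an adaptor of thymic selection, at 4.29 against 30.1 CPM (-2.81 (-3.89 to -1.90) on the log2 scale), the phosphatase Ptpn6 (SHP-1) at 54.1 against 118 CPM (-1.12 (-1.41 to -0.85)) and the adaptor Sh2d1a (SAP) at 119 against 235 CPM (-0.98 (-1.17 to -0.80)). In Ccl5-high cells of the small intestine 9 of 44 were higher, Cd8a and Cd8b1 among them, and 3 lower, beside 12.9% and 18.7% of all genes. In those of the spleen 4 and 5 of 44 were, near the 8.08% and 10.2% of all genes. Themis was higher in the Ccl5-high cells of each tissue, at 1.38 (0.31 to 2.72) and 1.26 (0.80 to 1.70) on the log2 scale. Pag1 was higher in those of the small intestine, 1.66 (0.66 to 2.88), and lower in those of the spleen, -1.44 (-3.09 to -0.16), both from few UMIs in the smaller group.

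With a Cd8a UMI, 2 of 44 were higher, Cd8a itself and Cd8b1, and 8 lower, near the 16.7% of all genes called lower (5.95% higher). The furthest of these were Cd2 at 171 against 496 CPM (-1.54 (-1.80 to -1.29) on the log2 scale), Cd4 at 159.7 against 445 CPM (-1.48 (-1.75 to -1.22)) and the costimulatory receptor Cd28 at 140.1 against 357 CPM (-1.35 (-1.64 to -1.08)). With a Nr4a1 UMI, 0 of 44 were called in small intestine and 1 in spleen, the exchange factor Rasgrp1, at -0.61 (-1.23 to -0.03) on the log2 scale.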

How the data were processed

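For each tissue, 1 library of sorted IL-10+ CD4+ T cells was made on the 10x Genomics Chromium platform. The authors deposited raw UMI counts per gene and barcode, and their processing notes name Cell Ranger, Trimmomatic and the builds mm10 and mm8. The genes listed in both files numbered 28009. Barcodes were removed when more than 3 median absolute deviations below the median for log UMIs or log genes, or above it for mitochondrial share. Cells in G2/M by cyclone were also removed. No upper limit was set on UMIs or genes. Kept barcodes held 1171 to 19521 UMIs in small intestine and 1613 to 30383 in spleen. The study's own number of kept cells lay between the deposited barcodes and the cells kept here in each tissue. No doublet caller was run. Counts were summed over cells and scaled to CPM, and genes with at least 50 UMIs in both groups together were compared. Cells were clustered per tissue with scran 1.30.0 and bluster 1.12.0 (20 principal components, 10 neighbours). Intervals were computed with scipy 1.17.1. Scripts were checked on simulated counts. Likeness was ranked over genes with at least 50 CPM in a tissue, naming the closest pair, and at most 3 called pathway genes per direction were named. Promoter windows came from RefSeq. The members and lists were chosen with earlier results of these data known.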

Additional observations from a re-analysis of the deposited data

How the results depend on the processing

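With 1 library per tissue, no value carries a replicate error, and every interval covers counting error only. No paired analysis was possible because each group is 1 library or a class of cells within it. Of the counts and shares recomputed, 97 stayed within 1.5 times and 32 moved, and of the single ratios 887 moved by less than their interval and 121 by more. With 2-fold as the limit, 0 members were called between the tissues over all cells, in the cells neither Ccl5-high nor with a Foxp3 or Cd8a UMI, in Ccl5-high cells of the small intestine and in cells with a Cd8a UMI. Of all genes, 13.6%, 10.9%, 5.91% and 1.54% were then called higher in these comparisons, in that order. Called lower were 10.4%, 10.9%, 6.36% and 6.06%. When only cells with a Foxp3 or Cd8a UMI were left out, Cd6 was 2.16-fold lower in spleen, at 229 against 495 CPM. With a limit of 0.32 on the log2 scale, 3 were called among Ccl5-high cells between the tissues (Cd247, Cd5, Cd6), 2 in the cells with neither, 2 for Foxp3 (Lck, Cd5), 3 for Ccl5-high in small intestine and 4 in spleen. Of all genes, 31.1% were then called higher and 30.2% lower between Ccl5-high cells, and 31.0% and 33.8% in the cells with neither. The shares were 18.5% and 16.5% for Foxp3, 21.0% and 34.6% for Ccl5-high in small intestine and 19.2% and 23.0% in spleen. In small intestine the call of Cd3g in Ccl5-high cells was lost (0 called) without the 5% of cells with the most UMIs, with cells of 3000 to 8000 UMIs, with the mean of each cell's CPM, after thinning, and at cuts of 20 and 40 per 10000. There 2 were called after centring on the median of all genes or of genes with at least 500 UMIs, without the 50 most counted genes, and at a cut of 5. Of all genes, 16.5%, 16.4%, 17.1% and 23.2% were called higher in these settings, in that order. In spleen 1 (Cd6) was called for Ccl5-high cells without the top 5% of cells, with 3000 to 8000 UMIs and after centring on genes with at least 500 UMIs, and 2 at a cut of 40. In the same order, 7.87%, 8.35%, 9.21% and 9.47% of all genes were called higher. Between Ccl5-high cells of the tissues 1 (Cd6) was called without the 50 most counted genes, after centring on genes with at least 500 UMIs and at a cut of 5, and 2 after thinning (Cd247, Cd6). In the settings with 1 called, 24.3%, 23.7% and 19.7% of all genes were called lower. After thinning 17.6% were called higher and 20.6% lower. With a Cd8a UMI 1 (Cd5) stayed past 1.5-fold after either centring and without the 50 most counted genes. With G2/M cells kept, or without the 5% of cells with the most UMIs, 2 (Zap70, Cd5) were called. The same 2 were called with 3000 to 8000 UMIs and with the mean of each cell's CPM. Of all genes, 15.9%, 19.6%, 19.7% and 17.9% were called lower in the settings with 2 called, in that order. Shares were higher in spleen for 4 members thinned and 7 unthinned, and 8 of the 18 most alike genes were shared when clusters were not centred within tissue. Apart from the changed limits themselves, what moved these counts was not tested.

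The split of all genes' calls depended on scaling. The share of calls that were higher went from 53.1% to 42.6% between the tissues and from 46.5% to 35.3% for Foxp3 after centring on genes with at least 500 UMIs, and from 48.5% to 37.3% between Ccl5-high cells without the 50 most counted genes. In small intestine it went from 40.8% to 55.3% for Ccl5-high and from 26.2% to 42.1% for Cd8a after centring on all genes. The cut of 40, the centring on genes with at least 500 UMIs, the CD8 split and the Cd8a comparison within Ccl5-high cells were chosen after seeing the data. So were the Foxp3 comparisons in small intestine and outside splenic cluster 3, and the tissue comparison without cells with a Foxp3 or Cd8a UMI.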
